A study of Mus musculus with 6 samples.

Results

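The 47 genes described here encode the phospholipases that cut fatty acids and head groups from membrane lipids, the lysophospholipid acyltransferases that put fatty acids back, the enzymes and coat proteins of triglyceride storage, and the enzymes that build phospholipid head groups. They were chosen by name as members of these pathways, and every array probe carrying such a name or an older synonym was taken, which gave 83 probes for 46 of the 47 genes among the 28711 gene names on the array. No probe was matched to Mboat7, which was not analysed here. The array spells names in capitals (AGPAT5, LPCAT3, DGAT2, PCYT2) and carries some older ones, such as ADFP for Plin2, M6PRBP1 for Plin3 and AYTL2 for Lpcat1. The samples were mouse colorectal cancer cells. MC38 cells are labelled as sensitive to EPA (eicosapentaenoic acid, an omega-3 polyunsaturate), and MC38r cells are a resistant line derived by continuous exposure to EPA, with a 6-fold higher IC50. Each line was measured on 3 bead arrays from cells grown to 70% confluence in RPMI with 10% foetal calf serum, and the labels name no EPA in the medium. With 1 line of each kind, resistance and any other difference between the lines cannot be told apart, and the labels do not say whether the replicates were separate cultures, so that p-values measure the spread between arrays that may be technical repeats.

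A polyunsaturated fatty acid such as EPA that enters a cell is tied to coenzyme A and then either built into membrane phospholipids or stored as triglyceride in lipid droplets. In membranes it mostly sits at the middle carbon of glycerol, from which phospholipase A2 enzymes release it and to which lysophospholipid acyltransferases attach it again, a turnover known as the Lands cycle. Glycerol-3-phosphate and lysophosphatidic acid acyltransferases, lipins and diacylglycerol acyltransferases make triglyceride, while the lipases of the droplet surface break it down.

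All 6 arrays lay on 1 chip, the 3 MC38 arrays in its first positions and the 3 MC38r arrays in its last, so that chip position and line cannot be told apart. Between 28.35% and 30.52% of the 45281 probes of an array were above background, which means a detection p under 0.01, and housekeeping control signals were lower on the MC38r arrays (10270 to 10670) than on the MC38 arrays (11550 to 12860). Biotin controls were also lower on the MC38r arrays (5450 to 6171 against 6241 to 7268). So were the Cy3 hybridization controls (3001 to 3184 against 3263 to 3558). Signals are given below as normalized log2 values per array in the order of the replicate numbers, or as mean ± SD (n = 3 arrays a line), and their order between genes carries no information since probes differ in brightness. The lowest signal above background was 5.19 to 5.36 on this scale. A pair of arrays deviated from their lines in the same direction: over the 9799 genes measured, the deviations of MC38 replicate 2 and MC38r replicate 1 from the means of their lines had a correlation of 0.64 across genes, and of 0.71 over the 29 measured genes of this pathway. Of 8 markers of colorectal epithelium, Cdx2 alone was above background on all arrays of a line, MC38r, and Epcam, Cdh1, Krt18, Krt19, Krt20 and Vil1 were above it on no array. Their summed signal on the linear scale was 188 to 200 on the MC38 arrays and 225 to 243 on the MC38r arrays. Among 7 fibroblast markers 5 were above background on all MC38 arrays and 3 on all MC38r arrays, with summed signals of 473 to 507 and 624 to 712. Of 8 macrophage markers Cd68 alone was above it, on all MC38 arrays, with sums of 218 to 238 and 199 to 215. All these sums include the markers at background and the offset of 16 added to every signal, so they do not measure cell content. The part of these markers in the changes below was not tested.

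Of the 46 genes with a probe, 29 passed the filter of a probe above background on at least 3 of the 6 arrays. In a limma test across all 9799 genes, 14 of these 29 were lower in MC38r, 7 were higher and 8 did not pass the threshold (adjusted p under 0.05, Benjamini-Hochberg). Together 72.4% of the measured genes were called, where the background over all genes was 56.5%, with 28.8% of all genes called higher and 27.7% called lower. The arrays of the lines did not overlap for 21 of the 29 genes, against 62.5% of all genes. Fitted folds reached 2 for 6 genes downward and 2 upward, against 12.2% and 11.7% of all genes. The median log2 change was -0.35 over the 29 genes and 0.03 over all genes. Of the 29 changes 13 were above zero and 16 below. Their median moved between -0.46 and -0.15 with 1 array left out, and was -0.11 over every kept probe. These counts are descriptions, since a gene that passed the filter through 1 line alone had to differ. With arrays left out in turn the number of calls was 14 to 20, lowest without MC38r replicate 3 (2 higher and 12 lower), and it was 22 without both MC38 replicate 2 and MC38r replicate 1. Of all genes, 49.3% to 59.2% were called with 1 array left out (49.3% without MC38r replicate 3). The share was 63% without both MC38 replicate 2 and MC38r replicate 1.

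**Figure D1:**
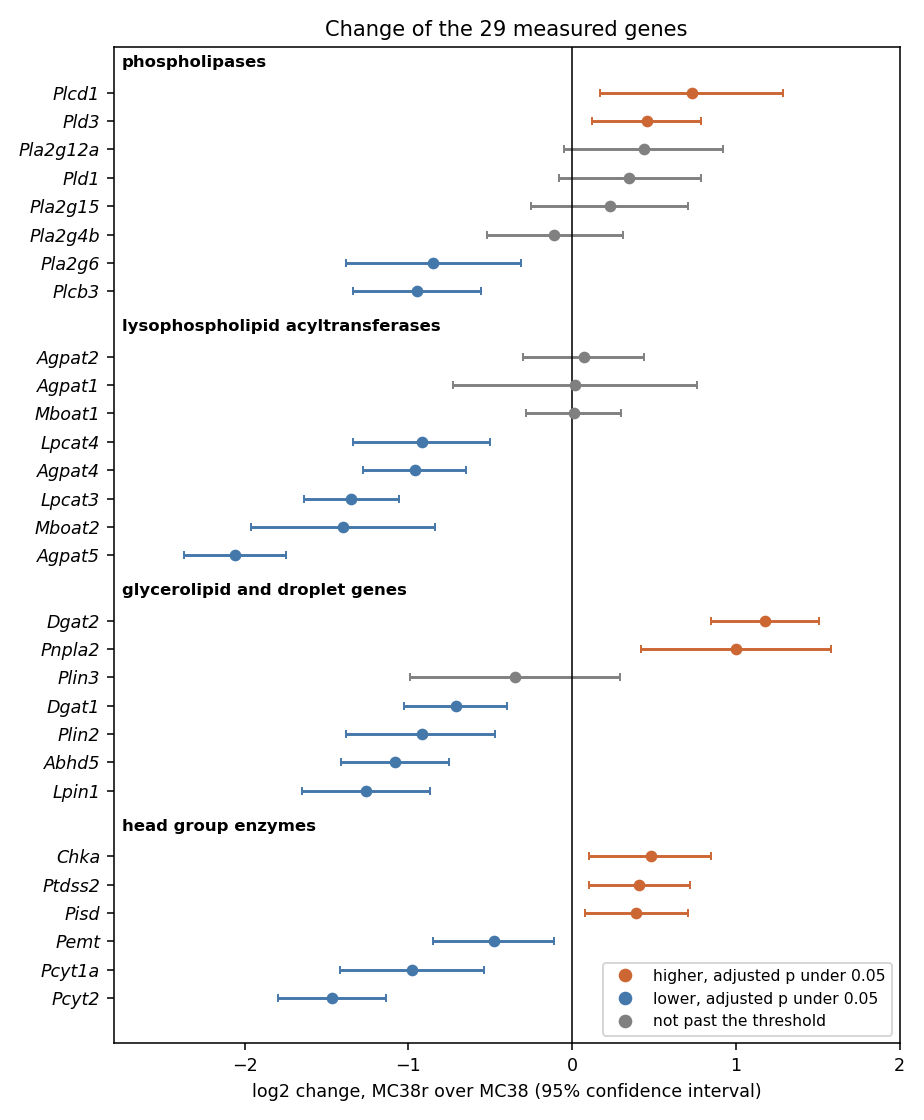
Fitted log2 change of MC38r over MC38 for the 29 measured genes, in their 4 groups, with bars for the 95% confidence interval from limma (3 arrays a line). Points in orange were higher and points in blue lower at an adjusted p under 0.05, and grey points did not pass. The acyltransferases have no orange point, and the head group enzymes split into 3 higher and 3 lower.

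Transcripts of 17 genes with a probe were not measured well enough to test. No array was above background for 14 of them. These were the phospholipases Pla2g2e, Pla2g4a, Pla2g7, Pla2g10 and Plcg1, the acyltransferases Lpcat1 and Agpat3, the glycerolipid and droplet genes Gpam, Lpin3, Lipe, Mgll, Cidea and Cidec, and the phosphatidylserine synthase Ptdss1. Their number includes Pla2g4a, the cytosolic phospholipase A2 that releases arachidonic acid and EPA for prostanoid synthesis, at 4.41 ± 0.14 (SD, n = 3) in MC38 and 4.34 ± 0.03 in MC38r. Hormone-sensitive lipase (Lipe), monoglyceride lipase (Mgll) and the droplet-fusing CIDE proteins (Cidea, Cidec) were also among these 14. Of 8 adipocyte markers, a list that includes Cidec itself, 7 were above background on no array. The summed linear signals of all 8, with background and offset included, were 190 to 212 in MC38 and 213 to 229 in MC38r. A link to the missing signals was not tested. The other 3, Pld2, Lpcat2 and Lpin2, were above background on 1 or 2 arrays. Pld2, a phospholipase D, was at 4.93 ± 0.18 in MC38 and 5.27 ± 0.16 in MC38r, and Lpin2, a phosphatidic acid phosphatase, at 5.18 ± 0.37 and 5.14 ± 0.16. For the lysophosphatidylcholine acyltransferase Lpcat2 the brightest of 3 probes read 5.26, 5.32 and 5.23 in MC38 and 4.49, 4.42 and 4.44 in MC38r. It was above background on 1 MC38 array, and it passed the limma test when no probe was filtered out (-0.82 on the log2 scale, adjusted p = 0.00017), as did none of the other 16.

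Phospholipases moved in both directions. Of 14 genes 8 were measured, of which 2 were higher, 2 lower and 4 not past the threshold, with a median log2 change of 0.29. The share called was 50%, near the 56.5% of all genes. Plcb3 encodes a phospholipase C that acts downstream of G protein-coupled receptors and releases diacylglycerol and inositol trisphosphate. It read 8.49, 7.88 and 8.32 on the MC38 arrays and 7.14, 7.35 and 7.35 on the MC38r arrays. All MC38r arrays were lower than all MC38 arrays, by 1.93-fold (-0.95 ± 0.17 on the log2 scale, fit ± SE, adjusted p = 0.0014). Another phospholipase C, Plcd1, rose 1.66-fold. Its MC38 arrays stood at 7.2, 6.41 and 7.24 and its MC38r arrays at 7.32, 7.91 and 7.82, so that the lines lay apart by a small gap and MC38 replicate 2 was the lowest (adjusted p = 0.031).

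Among the phospholipase A2 genes the calcium-independent enzyme Pla2g6 was the only one called. It read 5.73, 6.13 and 5.28 in MC38, above background on all arrays, and 5.21, 4.84 and 4.55 in MC38r, above background on none. Since the MC38r level is a limit, the means differed by at least 1.39-fold (1.8-fold as fitted, adjusted p = 0.014). The 95% interval of the fit was -1.38 to -0.31 on the log2 scale. Here and below, a fold given as at least compares mean signals and leaves out sampling error. The secreted enzyme Pla2g12a was at 10.68 ± 0.39 in MC38 and 11.11 ± 0.26 in MC38r by its brightest probe (0.44 on the log2 scale, 95% interval -0.05 to 0.92, adjusted p = 0.11). A dimmer probe of Pla2g12a read 7.9, 7.55 and 7.67 in MC38 against 8.27, 8.28 and 8.24 in MC38r and rose by 0.56 on the log2 scale (adjusted p = 0.0067 over all kept probes). Its lines did not overlap, and the mean of its kept probes passed as well (0.5, adjusted p = 0.021, where the 18 alternatives gave 0.021 to 0.3). The lysosomal phospholipase Pla2g15 stood at 9.27 ± 0.36 and 9.49 ± 0.3 (interval -0.25 to 0.71 on the log2 scale) and Pla2g4b, which has 2 further probes at background, at 7.63 ± 0.32 and 7.52 ± 0.19 (interval -0.52 to 0.31).

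The phospholipase D gene Pld1, whose product makes phosphatidic acid, was at 6.46 ± 0.23 in MC38 and 6.82 ± 0.32 in MC38r (0.35 on the log2 scale, interval -0.08 to 0.79, adjusted p = 0.14). Pld3, a lysosomal family member, rose 1.37-fold, from 6.74, 6.78 and 6.97 to 7.1, 7.25 and 7.51 (adjusted p = 0.025). The highest MC38 array lay just under the lowest MC38r array, and its other kept probe rose by 0.61 on the log2 scale. Of the 4 calls among phospholipases, Plcb3 alone passed without each array in turn. Pld3 missed the threshold without MC38 replicate 1 (adjusted p = 0.085), MC38r replicate 2 (0.057) or MC38r replicate 3 (0.1), and Plcd1 without MC38 replicate 2 (0.058), MC38r replicate 2 (0.11) or MC38r replicate 3 (0.098). Pla2g6 missed it without MC38r replicate 3 (0.058), with an adjusted p of 0.00095 to 0.06 over its 18 alternatives, against 0.0025 to 0.1 for Pld3 and 0.0019 to 0.12 for Plcd1. Log2 changes in these settings were 0.35 to 0.48 for Pld3, 0.46 (without MC38 replicate 2) to 0.66 for Plcd1 and -0.69 for Pla2g6, and the count of phospholipases called was 2 without MC38r replicate 2 and 1 without MC38r replicate 3. Without either of these arrays 49.3% of all genes were called, against 56.5% in the main fit.

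**Figure D2:**
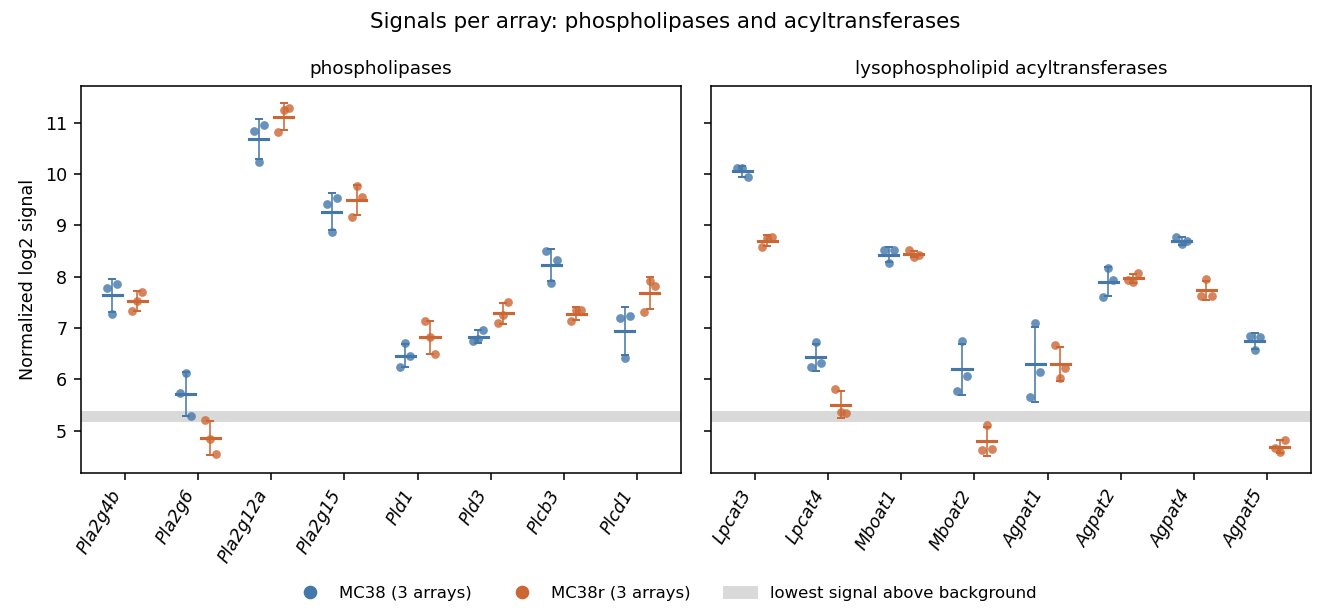
Normalized log2 signal of every measured phospholipase (left) and lysophospholipid acyltransferase (right) on the 3 MC38 arrays (blue) and the 3 MC38r arrays (orange), by the brightest kept probe. Points are arrays, the wide line is the mean, bars are the SD, and the grey band spans the lowest signals above background of the arrays. The means of Agpat5, Mboat2 and Pla2g6 lie above the band in MC38 and below it in MC38r.

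Lysophospholipid acyltransferases went down or did not pass the test. Of 12 genes 8 were measured, of which 5 fell, none rose, and 3 did not pass, with a median log2 change of -0.94. The share called was 62.5%, near the 56.5% of all genes. The same 5 calls stood without each array in turn. Those fits kept the probes chosen on all 6 arrays and so do not test the filter, which Mboat2 and Agpat5 passed through MC38 alone. Lpcat3, the enzyme that prefers polyunsaturated acyl chains and loads them into phosphatidylcholine and phosphatidylethanolamine, read 10.12, 10.11 and 9.93 in MC38 and 8.58, 8.75 and 8.77 in MC38r. The arrays within a line differed little and the lines lay far apart, at a 2.55-fold difference (-1.35 ± 0.13 on the log2 scale, adjusted p = 2.3e-05). A second probe of Lpcat3 read 5.95, 6.3 and 5.36 against 4.88, 4.8 and 4.87, below background on all MC38r arrays, a fall of at least 1.55-fold. Lpcat4, which acts on lysophosphatidylcholine and lysophosphatidylethanolamine, went from 6.24, 6.73 and 6.31 to 5.81, 5.37 and 5.35, and was 1.89-fold lower with no overlap (adjusted p = 0.0023).

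Mboat2, a relative of Lpcat3 that prefers monounsaturated chains, was read by 4 probes, of which 1 was kept. The kept probe stood at 5.78, 6.75 and 6.06 in MC38, highest in replicate 2, and at 4.62, 5.11 and 4.65 in MC38r, where no array was above background. This was a fall of at least 1.94-fold (2.64-fold as fitted, adjusted p = 0.0012), and the fitted log2 change of -1.4 was -0.67 in the values of the series matrix, which average all probes of a gene. A probe of Mboat2 that was left out as above background on 2 MC38 arrays went from 5.57 ± 0.36 to 4.73 ± 0.1. Its relative Mboat1 stood at 8.43 ± 0.14 in MC38 and 8.44 ± 0.06 in MC38r, with an interval of -0.28 to 0.3 on the log2 scale.

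Of the 5 AGPAT genes, which encode the enzymes or enzyme-like proteins that acylate lysophosphatidic acid on the way to both phospholipid and triglyceride, 4 were measured and 2 fell. Agpat5 had the largest fitted change of the 29 measured genes, from 6.85, 6.57 and 6.83 in MC38 to 4.67, 4.58 and 4.82 in MC38r. With no MC38r array above background, the fall was at least 2.84-fold (4.16-fold as fitted, adjusted p = 2.2e-06), and its log2 change of -2.06 as fitted was -1.24 with an offset of 50. Agpat4 read 8.78, 8.63 and 8.69 against 7.62, 7.95 and 7.63. It was lower on every MC38r array, by 1.95-fold (adjusted p = 0.00034). Agpat1 varied more among the MC38 arrays, at 5.65, 7.09 and 6.14, than between the lines (6.29 ± 0.73 against 6.31 ± 0.33, interval -0.73 to 0.76 on the log2 scale). Agpat2 was at 7.9 ± 0.29 and 7.97 ± 0.09, with an interval of -0.3 to 0.44, and a further probe of it at 7 ± 0.16 and 7.11 ± 0.1.

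Promoter sequences from RefSeq (build GRCm38.p6, the 250 bases before a transcript start) were set beside these changes, since several genes moved together. A promoter was found for 40 of the 47 genes and for 17 of the 21 that changed, and for 5 of the 8 with a fitted fold of 2 or more. Searched on both strands were the letters CCAAT, the site of the factor NF-Y, the sterol response letters TCACNCCAC, which sterol regulatory element-binding proteins read, and the E-box CACGTG. None of these contains another. Of the 11 genes that fell and have a promoter here, 6 held CCAAT (Agpat4, Lpcat3, Mboat2, Pemt, Pla2g6 and Plin2), as did 2 of the 6 that rose (Chka and Pisd), where 37.5% of all 27025 genes in the table did in any of their windows. Of the 7 measured genes that did not pass the threshold and have a promoter here, 6 also held CCAAT (Agpat1, Mboat1, Pla2g12a, Pla2g15, Pld1 and Plin3). TCACNCCAC was found in 1 of the 11, Pcyt1a, in 0 of the 6 and in 1 of the 7, Pla2g12a, against 1.22% of all genes. CACGTG was found in none of these genes, against 6.86% of all genes. The windows of Lpcat3 (chr6:124662854-124663103 on the plus strand) and Mboat2 (chr12:24831349-24831598 on the plus strand) are shown for 2 of the 3 acyltransferases with a fitted fall of 2-fold or more (the other is Agpat5), with CCAAT or its reverse complement ATTGG in capitals. That of Pcyt1a (chr16:32430671-32430920 on the plus strand) is shown for its sterol response letters, in capitals 116 bases before the start. Those of Abhd5 (chr9:122351366-122351615 on the plus strand) and Pnpla2 (chr7:141454938-141455187 on the plus strand), a coactivator and its lipase that moved in opposite directions, hold none of the letters searched.
Lpcat3: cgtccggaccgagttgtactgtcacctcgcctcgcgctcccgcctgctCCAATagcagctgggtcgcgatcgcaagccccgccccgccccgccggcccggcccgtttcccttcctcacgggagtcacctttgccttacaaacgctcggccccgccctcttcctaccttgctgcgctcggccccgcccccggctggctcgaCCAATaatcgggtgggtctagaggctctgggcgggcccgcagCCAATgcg
Mboat2: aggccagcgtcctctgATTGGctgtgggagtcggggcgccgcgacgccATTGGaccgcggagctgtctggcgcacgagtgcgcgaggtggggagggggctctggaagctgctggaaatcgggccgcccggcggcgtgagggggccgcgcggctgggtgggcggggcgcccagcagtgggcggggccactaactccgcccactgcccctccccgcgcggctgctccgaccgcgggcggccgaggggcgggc
Pcyt1a: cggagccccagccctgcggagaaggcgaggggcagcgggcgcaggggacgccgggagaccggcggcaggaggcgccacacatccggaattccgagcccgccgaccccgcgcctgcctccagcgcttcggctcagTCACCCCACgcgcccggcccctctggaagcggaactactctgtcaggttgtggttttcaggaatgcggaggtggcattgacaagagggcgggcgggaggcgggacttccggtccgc
Abhd5: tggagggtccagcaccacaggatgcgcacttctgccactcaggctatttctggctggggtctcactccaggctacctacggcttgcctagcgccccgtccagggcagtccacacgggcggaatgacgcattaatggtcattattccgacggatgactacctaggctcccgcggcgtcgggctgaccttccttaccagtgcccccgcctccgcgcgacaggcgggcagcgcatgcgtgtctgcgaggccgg
Pnpla2: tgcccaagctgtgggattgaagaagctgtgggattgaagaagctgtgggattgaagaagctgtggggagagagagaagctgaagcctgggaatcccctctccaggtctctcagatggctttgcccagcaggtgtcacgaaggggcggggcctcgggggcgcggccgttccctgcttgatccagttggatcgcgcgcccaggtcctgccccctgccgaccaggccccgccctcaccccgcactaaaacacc

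Glycerolipid and droplet genes moved in both directions. Of 14 such genes 7 were measured, of which 4 fell, 2 rose and 1 did not pass, with a median log2 change of -0.71. The share called was 85.7%, against 56.5% of all genes. All 6 calls stood without each array in turn. These fits, too, kept the probes chosen on all 6 arrays. They do not test the filter, for which the MC38r arrays of Dgat2 were enough alone. Lpin1 encodes lipin-1, a phosphatidic acid phosphatase that makes diacylglycerol. By its brightest probe it read 6.69, 6.54 and 6.86 in MC38 and 5.26, 5.78 and 5.26 in MC38r, with 2 MC38r arrays above background. The lines did not overlap, and the fall was 2.4-fold (-1.26 ± 0.17 on the log2 scale, adjusted p = 0.00025), or -0.62 on the log2 scale in the series matrix values. Another probe of Lpin1 fell from 5.88 ± 0.59 to 4.92 ± 0.3, by at least 1.56-fold, and 2 further ones were at background on all arrays.

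Both diacylglycerol acyltransferases, which complete triglyceride, differed between the lines. Dgat1 read 6.52, 6.22 and 6.49 in MC38 and 5.63, 5.84 and 5.62 in MC38r, 1.64-fold lower without overlap (adjusted p = 0.002). Dgat2 read 5.09, 5.52 and 5.18 in MC38, above background on 1 array, and 6.43, 6.5 and 6.4 in MC38r. It rose 2.26-fold as fitted (1.18 ± 0.15 on the log2 scale, adjusted p = 0.00013), from a level at the limit of detection. The 95% intervals of the log2 change were -1.03 to -0.4 for Dgat1 and 0.85 to 1.51 for Dgat2.

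Pnpla2 encodes adipose triglyceride lipase, the enzyme that starts triglyceride breakdown, and Abhd5 encodes CGI-58, its coactivator. Pnpla2 read 8.97, 8.01 and 8.95 in MC38, lowest in replicate 2, and 9.41, 9.81 and 9.72 in MC38r. All MC38r arrays were higher, with a fold of 2 (95% interval 0.42 to 1.58 on the log2 scale, adjusted p = 0.0085). Abhd5 went the other way, from 8.38, 8.48 and 8.26 to 7.51, 7.11 and 7.24. It fell 2.11-fold, with the highest MC38r array below the lowest MC38 array (-1.08 ± 0.15, adjusted p = 0.00022). Plin2, the perilipin that coats droplets in most cells, read 8.74, 9.07 and 8.93 in MC38 and 8.18, 7.54 and 8.24 in MC38r, a 1.9-fold fall without overlap (adjusted p = 0.0035). Plin3, a perilipin that moves between cytosol and droplets, overlapped between the lines at 7.45 ± 0.44 and 7.1 ± 0.5 (interval -0.99 to 0.29).

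**Figure D3:**
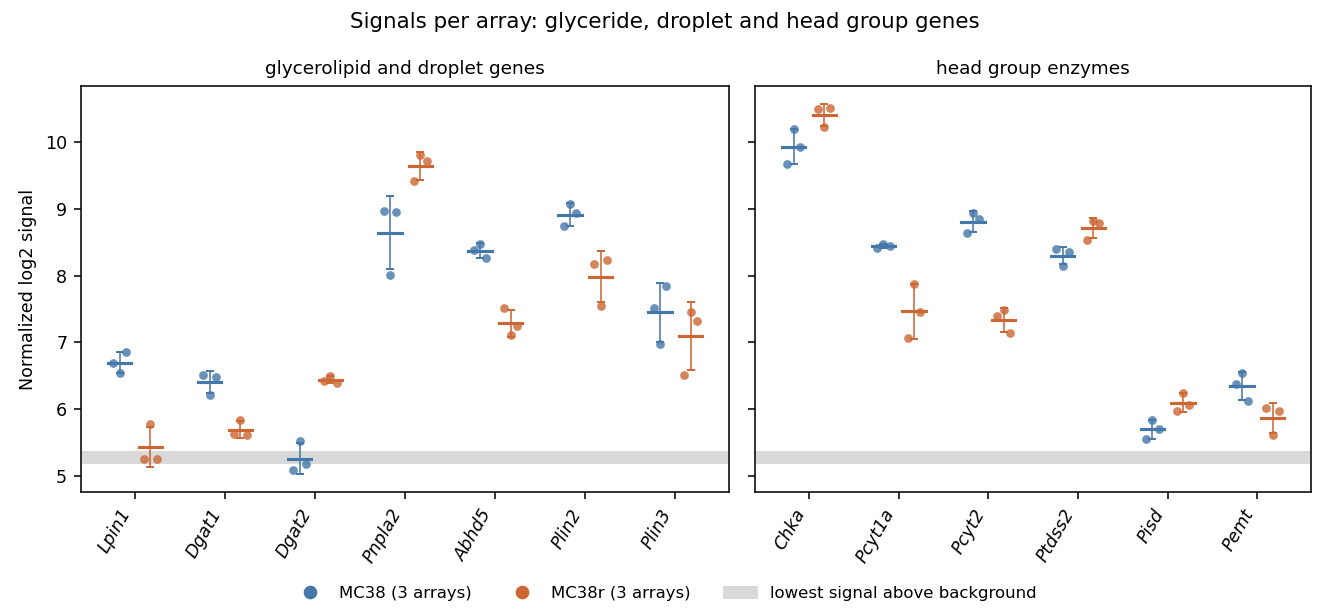
Normalized log2 signal of every measured glycerolipid or droplet gene (left) and head group enzyme (right) on the 3 MC38 arrays (blue) and the 3 MC38r arrays (orange). Points are arrays, the wide line is the mean, bars are the SD, and the grey band spans the lowest signals above background. Dgat1 and Dgat2, and Abhd5 and Pnpla2, are seen to move in opposite directions.

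Of 7 enzymes of phospholipid head groups 6 were measured, and all 6 passed the threshold, with 3 higher and 3 lower. Their median log2 change was -0.04. The share called was 100%, against 56.5% of all genes. This share did not hold with 1 array left out, where 2 to 5 of the 6 were called. The largest falls were in the enzymes that couple CTP to phosphoethanolamine or phosphocholine, which control the rate of the Kennedy pathway. Pcyt2, of the phosphatidylethanolamine branch, read 8.64, 8.94 and 8.84 in MC38 and 7.39, 7.48 and 7.14 in MC38r. The lines were well apart, and the fall was 2.77-fold (-1.47 ± 0.15 on the log2 scale, adjusted p = 3.3e-05). The other 2 probes of Pcyt2 had log2 changes of -1.43 and -1.68. Pcyt1a, of the phosphatidylcholine branch, stood at 8.41, 8.48 and 8.44 in MC38 and, with more spread, at 7.06, 7.88 and 7.46 in MC38r. It was 1.97-fold lower without overlap (adjusted p = 0.0023).

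Chka, the choline kinase upstream of Pcyt1a, rose, by an amount that depended on the probe. Its brightest probe read 9.67, 10.2 and 9.92 in MC38 and 10.49, 10.22 and 10.5 in MC38r, a 1.39-fold rise with nearly touching lines (adjusted p = 0.033). A dimmer probe read 6.25, 6.11 and 6.05 against 8.22, 8.1 and 8.12. By that probe the rise was 4.04-fold, with all arrays of a line close together (2.01 ± 0.13 on the log2 scale, adjusted p = 1.3e-06 over all kept probes). The mean of the kept probes gave 1.25 on the log2 scale (adjusted p = 2.9e-05). Of 2 further probes of Chka, 1 was above background on 2 MC38r arrays and the other on none.

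Smaller changes were fitted for the enzymes of phosphatidylserine and of methylation. Ptdss2, a phosphatidylserine synthase, went from 8.4, 8.15 and 8.35 to 8.54, 8.81 and 8.78, 1.33-fold higher (adjusted p = 0.03). Pisd, the mitochondrial decarboxylase that turns phosphatidylserine into phosphatidylethanolamine, went from 5.56, 5.84 and 5.71 to 5.97, 6.25 and 6.07, 1.31-fold higher (adjusted p = 0.036). In both genes the gap between the lines was smaller than the range within a line. Other kept probes of Pisd gave 0.33 and 0.86 on the log2 scale, of which the second passed. Pemt, which methylates phosphatidylethanolamine to phosphatidylcholine, went from 6.38, 6.55 and 6.13 to 6.02, 5.62 and 5.98, a 1.39-fold fall in which MC38 replicate 3 and MC38r replicate 1 nearly met (adjusted p = 0.032).

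These 4 calls by the brightest probe, of Chka, Ptdss2, Pisd and Pemt, were near the threshold. Each was lost when any of several different arrays was left out, whereas those of Pcyt2 and Pcyt1a stood without each array in turn. With 1 array left out, 49.3% to 59.2% of all genes were called, against 56.5% in the main fit. Without MC38 replicate 1 the adjusted p was 0.13 for Chka, 0.13 for Pisd and 0.085 for Pemt, and without MC38 replicate 2 it was 0.066 for Ptdss2 and 0.074 for Pemt. Without MC38 replicate 3 it was 0.079 for Chka, 0.058 for Ptdss2 and 0.078 for Pisd, and without MC38r replicate 1 it was 0.085 for Chka. Leaving out MC38r replicate 2 gave 0.1 for Ptdss2, 0.13 for Pisd and 0.12 for Pemt, and leaving out MC38r replicate 3 gave 0.11 for Chka, 0.1 for Ptdss2, 0.082 for Pisd and 0.054 for Pemt. Over the 18 alternatives of each gene the adjusted p was 2.9e-05 to 0.13 for Chka, 0.0082 to 0.1 for Ptdss2, 0.003 to 0.13 for Pisd and 0.013 to 0.12 for Pemt. The log2 changes kept their signs throughout, at 0.35 to 1.25, 0.32 to 0.49, 0.25 to 0.53 and -0.59 to -0.32. The number of head group enzymes called fell to 3 without MC38 replicate 1, MC38 replicate 3 or MC38r replicate 2, and to 2 without MC38r replicate 3.

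**Figure D4:**
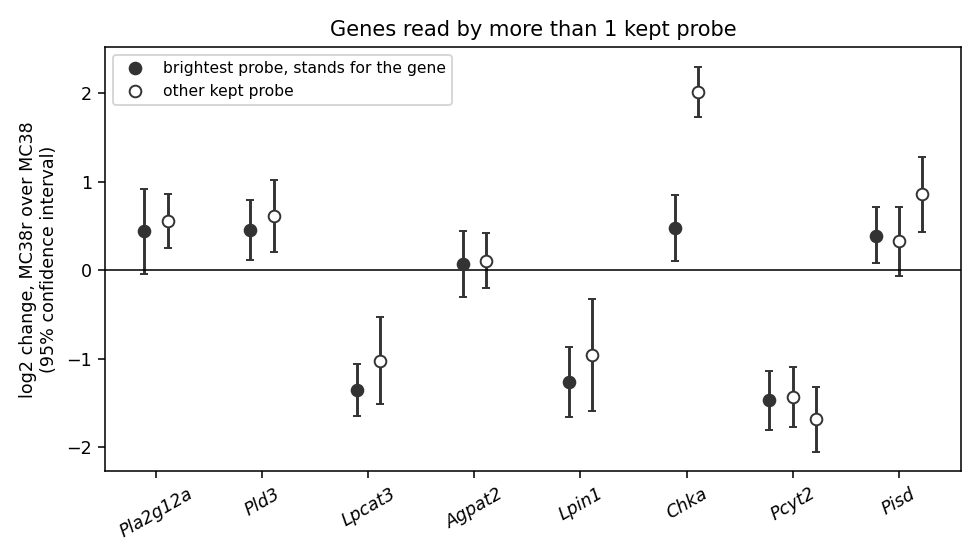
Log2 change of MC38r over MC38 for each kept probe of the 8 genes with more than 1, with 95% confidence intervals. Filled points are the brightest probe, which stands for the gene, and open points are the others. All kept probes of a gene have the same sign, and those of Chka lie farthest apart, at 0.48 and 2.01.

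Of the 8 genes with more than 1 kept probe, all had probes of 1 sign. Over the 39 kept probes of the pathway, 11 were higher, 18 lower and the others not past the threshold when p-values were adjusted over all 13990 kept probes, of which 55.1% were called.

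Other genes of the same pathways gave the following counts, from lists written from textbook knowledge. Named from each list are up to 3 genes with the largest changes that passed and did not overlap. They were picked by size of change and do not stand for their lists. Of 45 further phospholipases and lipid hydrolases 15 were measured, and 6 rose and 4 fell (66.7% called, against 56.5% of all genes). Plcg2, a phospholipase C of immune receptor signalling, fell 10.6-fold, from 8.73, 8.52 and 9.08 to 5.25, 5.44 and 5.44 (adjusted p = 2.7e-07). Its MC38r arrays were just above background and far below every MC38 array. Pnpla8, a calcium-independent phospholipase of mitochondria and peroxisomes, rose 2.5-fold (6.92 ± 0.28 to 8.24 ± 0.17, adjusted p = 0.00017), and Plcd3 rose 2.16-fold (6.17 ± 0.26 to 7.27 ± 0.35, adjusted p = 0.0014).

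In the list of 14 further acyltransferases 8 were measured, with 3 higher and 4 lower (87.5% called, against 56.5% of all genes). Soat2, an enzyme that esterifies cholesterol for storage, had the largest rise among the genes named here. It read 6.59, 6.01 and 6.32 in MC38 and 10.51, 10.81 and 10.82 in MC38r, a 21.2-fold difference (adjusted p = 8.3e-08) with every MC38r array far above every MC38 array. Its relative Soat1 fell 2.25-fold by its brightest probe (8.03 ± 0.05 to 6.86 ± 0.09, adjusted p = 4.3e-05), while another kept probe read 7.16 ± 0.41 and 7.7 ± 0.25, so that their mean did not pass (-0.31 on the log2 scale, adjusted p = 0.064, the highest of its 18 alternatives, which started at 2.2e-06). Tmem68, a glycerophospholipid acyltransferase family member, fell 6.46-fold (9.56 ± 0.05 to 6.87 ± 0.18, adjusted p = 3.5e-07).

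Of 24 further droplet and glyceride genes 9 were measured, and 3 rose and 5 fell (88.9% called, against 56.5% of all genes). Plpp1 and Plpp3 encode lipid phosphate phosphatases, which dephosphorylate phosphatidic and lysophosphatidic acid, and fell 5.15-fold (9.46 ± 0.2 to 7.1 ± 0.02, adjusted p = 9.5e-07) and 4.42-fold (9.43 ± 0.33 to 7.29 ± 0.34, adjusted p = 3.5e-05). A second probe of Plpp1 fell by 1.54 on the log2 scale. Daglb, a diacylglycerol lipase, fell 2.71-fold (9.18 ± 0.07 to 7.74 ± 0.05, adjusted p = 1e-05). Among 16 further head group and phosphatidylinositol genes 14 were measured, and 4 rose, 1 fell and 9 did not pass (35.7% called, against 56.5% of all genes). Pitpna, a phosphatidylinositol transfer protein, fell 7.33-fold (9.38 ± 0.18 to 6.51 ± 0.38, adjusted p = 2.8e-06). Cds1, a CDP-diacylglycerol synthase, was above background in MC38r alone and rose at least 1.62-fold, and Crls1, the cardiolipin synthase, rose 1.66-fold by its brightest of 4 kept probes (9.23 ± 0.2 to 9.96 ± 0.11, adjusted p = 0.0023), all of which were higher.

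The authors' deposited table of the same comparison, which ends at an unadjusted p of 0.05 and names no test, listed 19 of the 47 genes, 6 with a ratio above 1 and 13 below. Of these, 4 had in the authors' deposited table an adjusted p under 0.05, namely Agpat4 (ratio 0.538), Agpat5 (0.314), Dgat2 (1.86) and Abhd5 (0.503). The sign was the same as in the limma fit for all 18 genes that were measured in both. This is no independent evidence, since the deposited table covers the same comparison and lists only genes with a low p.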

How the data were processed

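Total RNA of both lines was hybridised as biotin-labelled cRNA to Illumina MouseWG-6 v2.0 bead arrays, 1 array a sample. The probe table came, per the file headers, from GenomeStudio 1.9.0, where the authors had applied quantile normalization. Its deposited signals are intensity on a linear scale, of which 35% to 35.1% lie under 0, so that background had been subtracted, and its deposited detection values are a score, 1 minus the detection p. The series matrix deposited by the authors holds intensity per gene, with steps not given in the sources used here; its ranks within an array matched the mean of a gene's probes (Spearman 1 after rounding). Column medians were 38.1. The authors' deposited table gives a linear ratio, its log2 value and p-values. Sample table control signals are intensity as deposited by the authors.

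Signals were background-corrected with nec in limma 3.58.1 (normexp, offset 16), log2-transformed and quantile-normalized in R 4.3.3. Of 45281 probes, the 13990 above background (detection p under 0.01) on 3 or more of the 6 arrays were kept. Names were matched to RefSeq symbols for 22775 of 30854 array names, and the brightest kept probe stood for a gene (9799 genes). The lines were compared with limma (lmFit, eBayes), checked on simulated data, with Benjamini-Hochberg adjustment over all genes and a threshold of 0.05. Folds against a line with no array above background are bounds on the difference of means, taken against the lowest signal above background of each array. They leave out sampling error and the choice of offset. The number of arrays limits precision: the median SE of a log2 change was 0.15. Between 19 and 66 beads lay behind each signal of the 39 kept probes of these genes. All 47 members could be named, and from each list of further genes up to 3 with the largest changes that passed and did not overlap. Members and lists were chosen with earlier results of these data known. Alternatives concerned background, offset, normalization, filter, probe summary, variance model, weights, replicate block and omitted arrays; the omission of MC38 replicate 2 with MC38r replicate 1 was added after seeing the data. The labels do not say that replicate numbers pair the arrays, and the main fit used no pairing.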

Additional observations from a re-analysis of the deposited data

How the results depend on the processing

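Over the 18 alternatives of each gene, 14 of the 21 calls held in every setting and none changed sign; these were Plcb3, Lpcat3, Lpcat4, Mboat2, Agpat4, Agpat5, Lpin1, Dgat1, Dgat2, Pnpla2, Abhd5, Plin2, Pcyt1a and Pcyt2. Among the 8 genes not called, Pla2g12a passed in some settings. With no probe filter 2 of 14 phospholipases were called instead of 4 of 8, and 18.8% of all 28711 genes instead of 56.5%. With every kept probe counted, 10 of 11 head group probes were called, with 13 of 16 for the further droplet genes and 10 of 23 for the further head group genes. More features than genes are counted there, and 55.1% of all kept probes were called. With the replicate number as a block 2 of 6 head group enzymes and 3 further head group genes were called, against 6 and 5 without it, and 16 of the 29 genes in all, against 21. The share of all genes called was 50% with the block and 56.5% without it. Same-numbered arrays deviated from their lines with correlations of -0.49, -0.47 and 0.34. These values cannot show whether arrays were paired, since deviations within a line are tied together by its mean. The labels name no pairing. With 1 array left out the calls were 14 to 20 in all, 1 to 4 phospholipases, 5 to 5 acyltransferases, 6 to 6 glycerolipid and droplet genes, 2 to 5 head group enzymes, and 9 to 11, 5 to 7, 6 to 8 and 3 to 5 in the lists of further phospholipases, acyltransferases, droplet and head group genes. The share of all genes called was 49.3% to 59.2% in these fits. Genes near 0 that were never called turned sign. Mboat1 was at -0.02 with cyclic loess, -0.07 with array weights, -0.07 without MC38 replicate 2, -0.03 without MC38r replicate 1 and -0.11 without both, up to 0.05 without MC38 replicate 1. Agpat1 was at -0.03 with cyclic loess, -0.01 with offset 50, 0 in the series matrix values (below 0 before rounding), -0.3 and -0.06 without MC38 replicate 1 or 3 and -0.17 without MC38r replicate 1, up to 0.41 without MC38 replicate 2. Agpat2 was at -0.09 without MC38 replicate 1 and up to 0.25 with array weights (0.22 without MC38 replicate 2 and MC38r replicate 1). Pla2g4b was at 0 without MC38 replicate 3, down to -0.29 without MC38 replicate 2. The causes were not tested. An offset of 50 reduced the log2 changes of dim genes, with their calls kept except for Pisd: Agpat5 to -1.24, Mboat2 to -0.8, Lpin1 to -0.83, Dgat2 to 0.74, Pla2g6 to -0.46, Lpcat4 to -0.6, Dgat1 to -0.47, Cds1 to 0.66 and Pisd to 0.25. For Soat1 the series matrix values gave -0.29. Signal over background limits the rest: for the 17 genes without a kept probe a difference was not detectable at this signal, except for Lpcat2.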
